A study of Bos taurus with 44 samples.

Results

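Cows that had been classed as low antibody responders were compared here with cows classed as low cell-mediated responders. The comparison used 23 of the 44 arrays of the series, chosen by their titles. Of these, 12 arrays came from 3 cows labelled low-Ab and 11 from 3 cows labelled low-DTH, so 6 of the 11 cows entered it and no cow stood in both groups. All were female Canadian Holsteins that had been immunised with antigens meant to provoke both kinds of response, and blood was taken 6 days later. Mononuclear cells were separated on Percoll and received no further treatment. Their RNA was amplified, labelled, and hybridised beside a shared RNA standard made from the same kind of cells, with the dyes exchanged between arrays of a cow. Ab stands for the antibody response and DTH for the cell-mediated one. Each cow carries a label for 1 trait only, so the class of a low-Ab cow for DTH, and of a low-DTH cow for Ab, is not given in the sources used here, and neither are ages or lactation stages. The comparison asks how blood cells of cows that were poor at one arm of immunity differed from those of cows that were poor at the other.

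Antibody responses depend on B cells and on helper T cells that make cytokines such as IL4, whereas delayed-type hypersensitivity is a skin reaction in which T cells recruit and activate monocytes and macrophages. Monocytes make the IL1 cytokines, IL6 and the chemokines CXCL8, CCL2 and CCL3 when they sense microbial products or damage. IL1A and IL1B signal through the same receptor, and IL1RN blocks that receptor. Cells show fragments of their own proteins to cytotoxic T cells on MHC class I molecules, which needs the proteasome, with the subunits PSMB8, PSMB9 and PSMB10 under interferon, and the TAP peptide transporter.

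All values are log ratios of a cow to the standard as deposited, read as log2. The base is not given in the sources used here, so no fold is stated. The ratio is read as cow over standard, and every direction would turn together under the opposite reading. A value near 0 means a level close to that of the standard, not a low level. Because the standard came from the same kind of cells, the ratios cannot show whether a marker of the labelled cell type is present. Fewer cells of a type and less RNA per cell cannot be told apart in these bulk samples. Each gene had 8 spots on an array, or 16 for the 10 genes with a pair of clones. A cow had 4 arrays, except low-DTH cow 3 with 3, and its arrays were averaged to 1 value per cow, which is the unit of every test. Differences are low-Ab minus low-DTH.

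For 3 arrays the sign is in doubt. Arrays 1 and 2 of low-Ab cow 1 correlated with arrays 4 and 3 of the same cow at r = −0.67 and r = −0.73 over all spots. With arrays 3 and 4, of the same dye orientation, they correlated less strongly, at r = −0.28 and r = −0.28. Array 3 of low-DTH cow 3 correlated with the other 2 arrays of that cow at r = −0.58 and r = −0.54. Within each of the other 4 cows, r between arrays was at least 0.06. As deposited, the opposed arrays of low-Ab cow 1 cancelled: its median absolute value over the 141 named genes was 0.03, against 0.08 to 0.14 in the other 5 cows, and it was 0.11 with arrays 1 and 2 turned. Within low-Ab cow 1, arrays 1 and 2 correlated with each other at r = 0.35 and arrays 3 and 4 at r = 0.18. These correlations do not tell which pair is reversed, and the choice to turn arrays 1 and 2 was not tested. Turning arrays 3 and 4 instead would give every turned value of this cow the opposite sign. Values are given as deposited first, then with the 3 signs turned. The shift between dye orientations also differed between the groups. Over genes, the value with the cow in Alexa647 minus that in Alexa555 correlated between low-Ab cows at r = 0.71 to 0.89, but between low-DTH cows at r = −0.28 to 0.22. Low-DTH cow 2 resembled the low-Ab cows in this (r = 0.62 to 0.66), and the shift of low-DTH cow 3 rests on its array of doubtful sign. No label gives a hybridisation date or batch, so whether the 2 groups were hybridised together cannot be told. Averaging over orientations cancels an additive dye shift, and any other part of it in the results was not tested.

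No feature passed the test. Of the 564 features, which were 141 named genes and 423 unnamed spots, 0 (a share of 0%) had an adjusted p under 0.05 in limma with Benjamini-Hochberg adjustment, and 45 (7.98%) had an unadjusted p under 0.05. The smallest adjusted p was 0.052, for IL1A. With the 3 arrays turned the adjusted count was again 0, with a smallest adjusted p of 0.10 in limma, and 116 features (20.6%) had an unadjusted p under 0.05. In 64 features (11.3%) the 3 low-Ab and the 3 low-DTH cows did not overlap, 31 (5.5%) with the low-Ab cows higher and 33 (5.85%) with them lower. Among the named genes 19 of 141 did not overlap, 12 higher and 7 lower in low-Ab cows. The 12 higher were IL1A, IL1B, IL1RN, CCL2, CCL3, CCL20, CXCL8, IL6, ALCAM, IGF1R, PRLR and SERPINA6, and the 7 lower were LTB, IL10RB, TAP2, PSMC5, CD3D, C3 and PRL. With the 3 arrays turned, 34 of the 141 named genes did not overlap, against 28.4% of all features. Under both readings 12 named genes did not overlap, with the same sign. Every cow without a turned array has the same values in both readings, so agreement between the readings is partly built in. The share of all features without overlap under both readings was not counted, so the 12 have no background to be set against. The largest differences were those of IL1B, CCL3, CXCL8 and IL1A, all higher in low-Ab cows, but none of them passed adjustment over the whole array. Next among the named genes came IGHM, lower in low-Ab cows at −0.80.

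**Figure D1:**
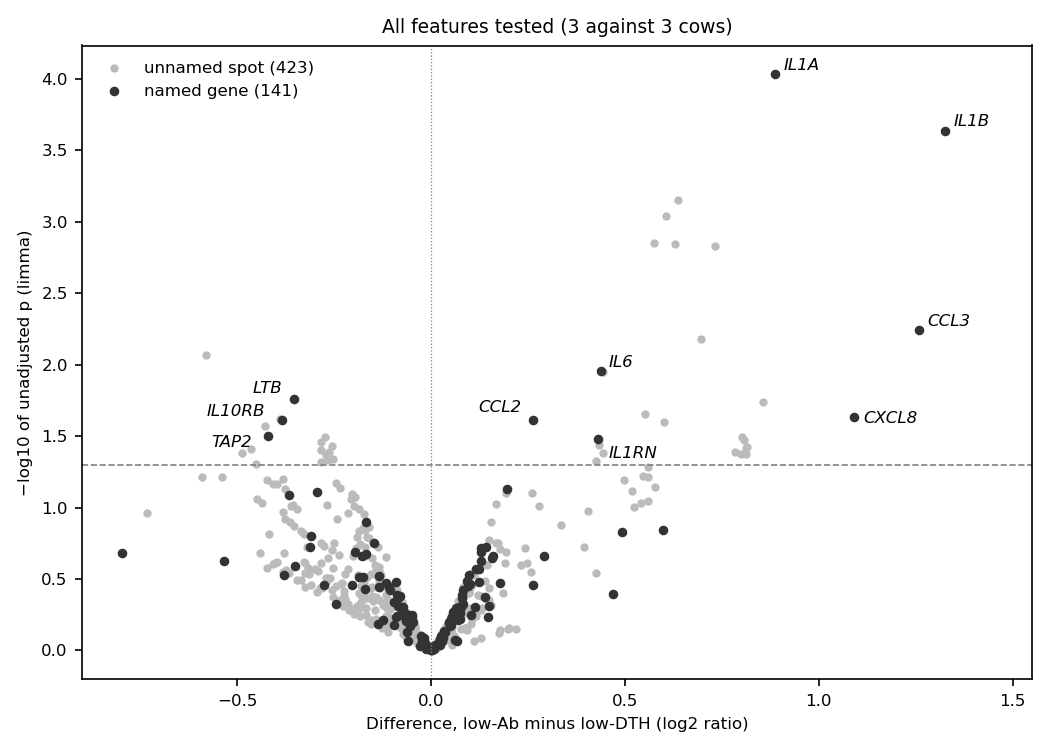
Difference between the low-Ab and low-DTH cows (x axis, log2 ratio) against −log10 of the unadjusted limma p (y axis) for the 141 named genes (dark points) and 423 unnamed spots (grey points), with the 10 genes of smallest p named. The dashed line marks an unadjusted p of 0.05. IL1A and IL1B stand highest, at differences of 0.89 and 1.33, and no feature had an adjusted p under 0.05.

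The IL1 genes showed the clearest separation. IL1B, the secreted form of IL1, was at −0.04, 0.02 and 0.16 in low-Ab cows 1 to 3 and at −1.22, −0.98 and −1.65 in low-DTH cows 1 to 3. All 3 low-Ab cows were thus close to the standard, and all 3 low-DTH cows were clearly below it. The means were 0.05 ± 0.10 (SD, n = 3) and −1.28 ± 0.34 (SD, n = 3), a difference of 1.33 ± 0.18 (SE, 95% interval 0.89 to 1.76, limma adjusted p = 0.065). On single arrays IL1B ran from −0.15 to 0.39 in low-Ab cows, with a median of 0.04, and from −2.64 to 1.09 in low-DTH cows, with a median of −1.27. The 1.09 was the array of low-DTH cow 3 with the doubtful sign, and the other 10 low-DTH arrays lay below all 12 low-Ab arrays. In low-Ab cow 1 IL1B was within 0.14 of 0 on every array, so that turning arrays 1 and 2 left the cow at −0.04.

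IL1A, the form that largely stays in or on the cell, was at −0.04, −0.30 and −0.09 in low-Ab cows and at −1.08, −1.03 and −1.0 in low-DTH cows. The difference was 0.89 ± 0.10 (SE, 95% interval 0.64 to 1.14, limma adjusted p = 0.052). The low-DTH cows stood close together, with an SD of 0.04, but this closeness rests on the array of doubtful sign. The 3 arrays of low-DTH cow 3 read −1.85, −1.76 and 1.49, and with the last one turned the cow moved from −1.0 to −1.74. The difference then became 1.10 ± 0.21 (SE, limma adjusted p = 0.10), and that of IL1B 1.51 ± 0.32 (SE, limma adjusted p = 0.10). Without the 3 arrays the differences were 1.11 for IL1A and 1.60 for IL1B. As for IL1B, 10 of the 11 low-DTH arrays lay below every low-Ab array. IL1A and IL1B are near neighbours, with 1 coding gene between them in the ARS-UCD2.0 assembly.

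**Figure D2:**
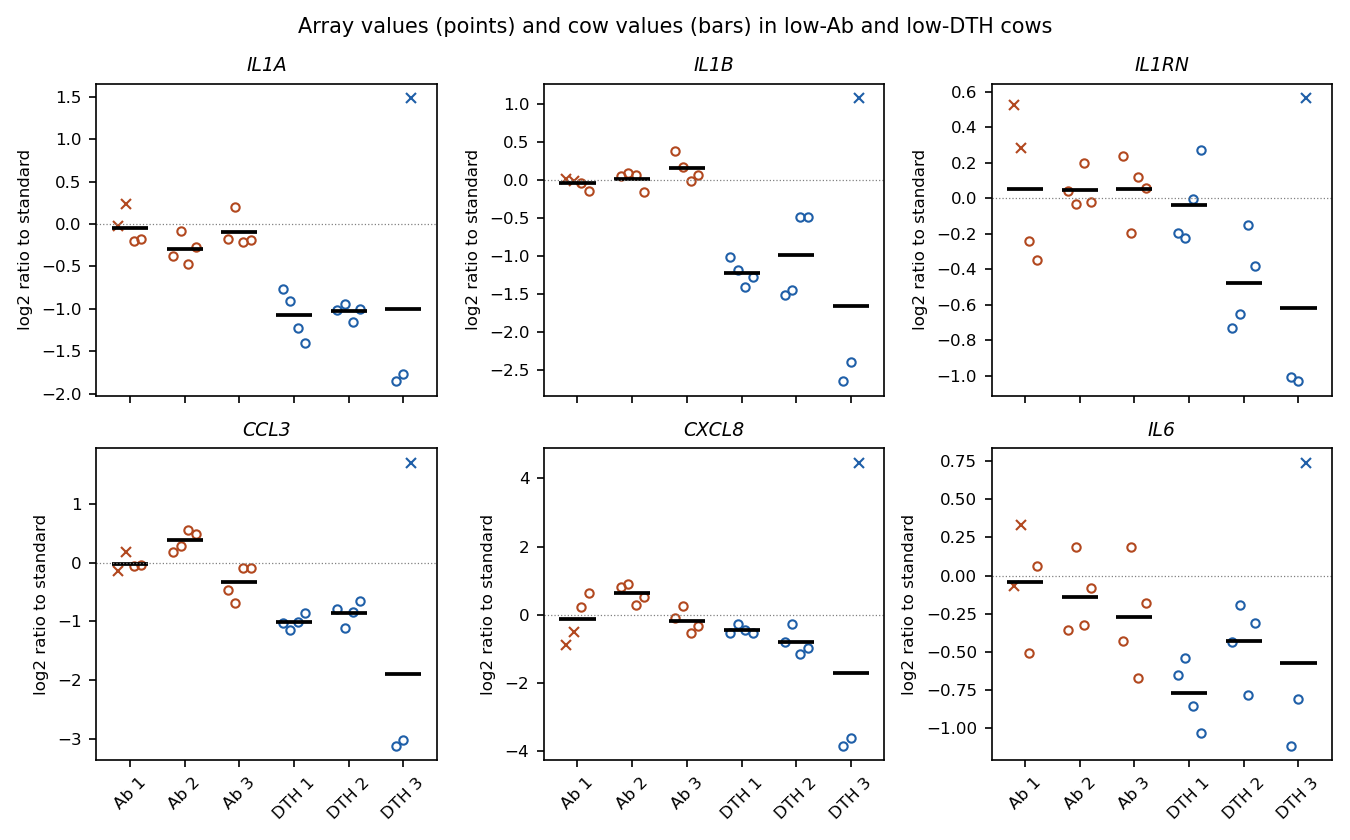
Log2 ratio to the standard on each array (points) and the value of each cow (black bars) for 6 genes in low-Ab cows 1 to 3 (Ab, orange) and low-DTH cows 1 to 3 (DTH, blue). Crosses are the 3 arrays of doubtful sign. For IL1A and IL1B all low-DTH arrays except the cross of cow 3 lie below all low-Ab arrays.

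IL1RN, the antagonist of the same receptor, was at 0.05, 0.05 and 0.05 in low-Ab cows and at −0.04, −0.48 and −0.62 in low-DTH cows. The difference was 0.43 ± 0.16 (SE, limma adjusted p = 0.61) as deposited and 0.39 ± 0.24 (SE, limma adjusted p = 0.41) turned, when low-Ab cow 1 moved to −0.35 and the groups overlapped. Its sign also depended on the array set, as given below for arrays 3 and 4. The caspases that mature IL1B or act beside it overlapped as deposited: CASP1 differed by 0.06 ± 0.30 (SE) and CASP4 by 0.15 ± 0.20 (SE). IL18, which CASP1 also cleaves, differed by 0.07 ± 0.13 (SE). Of the 18 listed genes of this family 6 were measured, and all 6 differences were above 0, with a median of 0.29 against −0.04 over all features. None passed adjustment, and 3 of 6 had an unadjusted p under 0.05, against 7.98% of all features. Turned, all 6 were again above 0, with a median of 0.39, and 3 of 6 had an unadjusted p under 0.05, against 20.6%.

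Chemokine ligands followed the same order of groups. CCL3, which draws monocytes and T cells, was at −0.02, 0.38 and −0.33 in low-Ab cows and at −1.01, −0.85 and −1.89 in low-DTH cows. The difference was 1.26 ± 0.31 (SE, 95% interval 0.51 to 2.01, limma adjusted p = 0.41). Low-DTH cow 3 was the lowest, with arrays at −3.12, −3.01 and, on the array of doubtful sign, 1.70. With that sign turned the cow stood at −2.74 and the difference was 1.54 ± 0.53 (SE, limma adjusted p = 0.18).

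CXCL8, which attracts neutrophils, was at −0.13, 0.63 and −0.18 in low-Ab cows and at −0.44, −0.81 and −1.71 in low-DTH cows. This gave a difference of 1.09 ± 0.37 (SE, limma adjusted p = 0.61). The groups were separated by a narrow gap, between low-Ab cow 3 and low-DTH cow 1. Arrays of low-DTH cow 3 read −3.86, −3.61 and 4.46, so its cow value is an average of opposed readings, and turned it was −3.95. The turned difference was 2.07 ± 0.95 (SE, limma adjusted p = 0.30). Without low-DTH cow 3 the difference fell to 0.73.

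CCL2, which draws monocytes, had small but separated values of −0.01, 0.10 and 0.00 in low-Ab cows and −0.17, −0.28 and −0.24 in low-DTH cows. The difference was 0.26 ± 0.09 (SE, limma adjusted p = 0.61), and its clones gave 0.19 and 0.34. CCL20, the ligand of CCR6, differed by 0.20 ± 0.09 (SE, limma adjusted p = 0.69), also without overlap. CCL5, made by T and NK cells, was highest in low-Ab cow 2, at 0.94. Low-Ab cow 1 moved from −0.02 to 0.62 with the signs turned, and the groups overlapped under both readings. CCL8 differed by −0.01 ± 0.14 (SE). Of 34 listed ligands 7 were measured, 6 of them above 0 under both readings. Their median was 0.26, and 0.34 turned, against −0.04 and −0.03 over all features. None passed adjustment. As deposited 3 of 7 had an unadjusted p under 0.05, against 7.98% of all features, and 4 of 7 were higher without overlap, against 5.5%. Turned, these counts were 4 of 7 against 20.6% and 5 of 7 against 11.3%.

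Among the receptors for chemokines 7 of 18 were measured, with a median difference of 0.06, and none was separated between the groups. CXCR4, the receptor of CXCL12 that holds leukocytes in marrow and lymphoid tissue, had the largest difference at 0.49 ± 0.30 (SE). That value came from low-Ab cow 3 at 1.08, while the other 5 cows lay between −0.35 and 0.06. With the doubtful signs turned, low-Ab cow 1 stood at 0.93 and low-DTH cow 3 at 0.71, with a difference of 0.58 ± 0.37 (SE). SDF1, the array's name for CXCL12, differed by 0.06 ± 0.10 (SE), and CCR1, a receptor of CCL3, by −0.07 ± 0.10 (SE).

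IL6, a cytokine of fever and plasma cell growth, was at −0.05, −0.14 and −0.27 in low-Ab cows and at −0.77, −0.43 and −0.58 in low-DTH cows. All cows were below the standard and the low-DTH cows further. The difference was 0.44 ± 0.12 (SE, limma adjusted p = 0.53), and 0.52 ± 0.14 (SE, limma adjusted p = 0.13) turned. This gene also had a strong dye shift: its value with the cow in Alexa647 was lower than in Alexa555 by 0.49, 0.40 and 0.55 in low-Ab cows, as against 0.36 in low-DTH cow 2 and a shift of 0.03 the other way in low-DTH cow 1. Its difference was 0.43 on Alexa647 arrays alone and 0.44 on Alexa555 arrays alone. The receptor IL6R, the signalling factor STAT3 and IL17A differed by 0.02, 0.05 and 0.01, each less than its SE. So the 4 measured genes of 14 in that list had a median of 0.04.

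IL10RB stood out on the other side. This chain, shared by the receptors of IL10, IL22 and type III interferons, was at −0.00, −0.45 and −0.22 in low-Ab cows and at 0.15, 0.22 and 0.11 in low-DTH cows. The difference was −0.39 ± 0.13 (SE, limma adjusted p = 0.61) as deposited and −0.47 ± 0.11 (SE, limma adjusted p = 0.11) turned. Its partner chain IL10RA differed by 0.04 ± 0.10 (SE) and IL10 itself by 0.01 ± 0.20 (SE). TGFB1, TGFB2 and the receptor TGFBR1 differed by 0.03, 0.08 and 0.05, each within its SE. Of the 6 measured genes of this list, 5 were above 0 and IL10RB was the only one without overlap as deposited.

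LTB, a membrane ligand of lymphocytes that shapes lymphoid tissue, was at 0.03, −0.17 and −0.02 in low-Ab cows and at 0.26, 0.45 and 0.19 in low-DTH cows. The difference was −0.35 ± 0.11 (SE, 95% interval −0.62 to −0.09, limma adjusted p = 0.61). Turning the 3 arrays drew low-Ab cow 1 to −0.14 and low-DTH cow 3 to 0.44, which gave −0.49 ± 0.08 (SE, limma adjusted p = 0.10). On arrays, 7 of the 11 low-DTH values lay above all 12 low-Ab values, and 1, that of the array of doubtful sign, lay below them. The other genes of the TNF family and cell survival did not separate as deposited. FASLG and FAS differed by −0.05 and 0.00, TNFRSF1A and TNFRSF1B by −0.01 and −0.05, and ADAM17, the enzyme that sheds TNF, by 0.13 ± 0.09 (SE). The median of the 8 measured genes was −0.00.

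Genes for MHC class I antigen processing lay below 0. TAP2, a chain of the peptide transporter, was at −0.01, −0.44 and −0.48 in low-Ab cows and at 0.01, 0.24 and 0.08 in low-DTH cows. Low-Ab cow 1 and low-DTH cow 1 were barely apart. The difference was −0.42 ± 0.15 (SE, limma adjusted p = 0.61). With the doubtful signs turned, low-Ab cow 1 stood at −0.43 like the other low-Ab cows, and the difference was −0.58 ± 0.08 (SE, limma adjusted p = 0.10), the smallest unadjusted p of the named genes under that reading. TAP2 had a large dye shift in the low-Ab cows, with the cow in Alexa647 higher by 0.73, 0.24 and 0.57. Its difference was −0.21 on Alexa647 arrays alone and −0.63 on Alexa555 arrays alone.

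The 3 interferon-inducible proteasome subunits shared this direction. PSMB9 was at 0.02, −0.31 and −0.37 in low-Ab cows and at −0.10, 0.45 and 0.09 in low-DTH cows. It differed by −0.37 ± 0.18 (SE, limma adjusted p = 0.70). PSMB8 was at 0.07, −0.07 and −0.03 against 0.32, 0.67 and −0.09, a difference of −0.31 ± 0.19 (SE, limma adjusted p = 0.87). PSMB10 differed by −0.20 ± 0.14 (SE, limma adjusted p = 0.88). Low-Ab and low-DTH cows overlapped in all 3 as deposited, through low-DTH cow 1 or cow 3. Turned, none of the 3 overlapped, and the differences were −0.49, −0.56 and −0.38. PSMC5, an ATPase of the proteasome cap, was at 0.04, −0.21 and −0.05 against 0.05, 0.46 and 0.15 and differed by −0.29 ± 0.14 (SE, limma adjusted p = 0.69). Its gap was under 0.01, between cow 1 of each group. With the signs turned low-Ab cow 1 lay above low-DTH cow 1, and the PSMC5 groups overlapped. IRF1, an interferon-induced activator of these genes, was at 0.02, −0.48 and −0.83 against −0.09, −0.08 and −0.19, with a difference of −0.31 ± 0.21 (SE), and −0.57 ± 0.11 (SE) without overlap when turned. TAPBP and CALR, chaperones that load peptide, differed by −0.09 and −0.08, and B2M, the light chain, by 0.00 ± 0.11 (SE).

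Over this list 7 of 17 genes were measured, 6 were below 0 and the median was −0.20. Over all features 333 of 564 were below 0, with a median of −0.04. As deposited 1 of 7 had an unadjusted p under 0.05 in limma, against 7.98% of all features. Likewise 1 of 7 was lower without overlap, against 5.85%. Turned, 7 of 7 were below 0 with a median of −0.38, 4 of 7 had an unadjusted p under 0.05, against 20.6% of all features, and 5 of 7 were lower without overlap, against 17%. None passed adjustment under either reading. TAP2, PSMB8 and PSMB9 lie in the same region, with 1 coding gene between TAP2 and PSMB8 and 1 between PSMB8 and PSMB9 in ARS-UCD2.0.

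**Figure D3:**
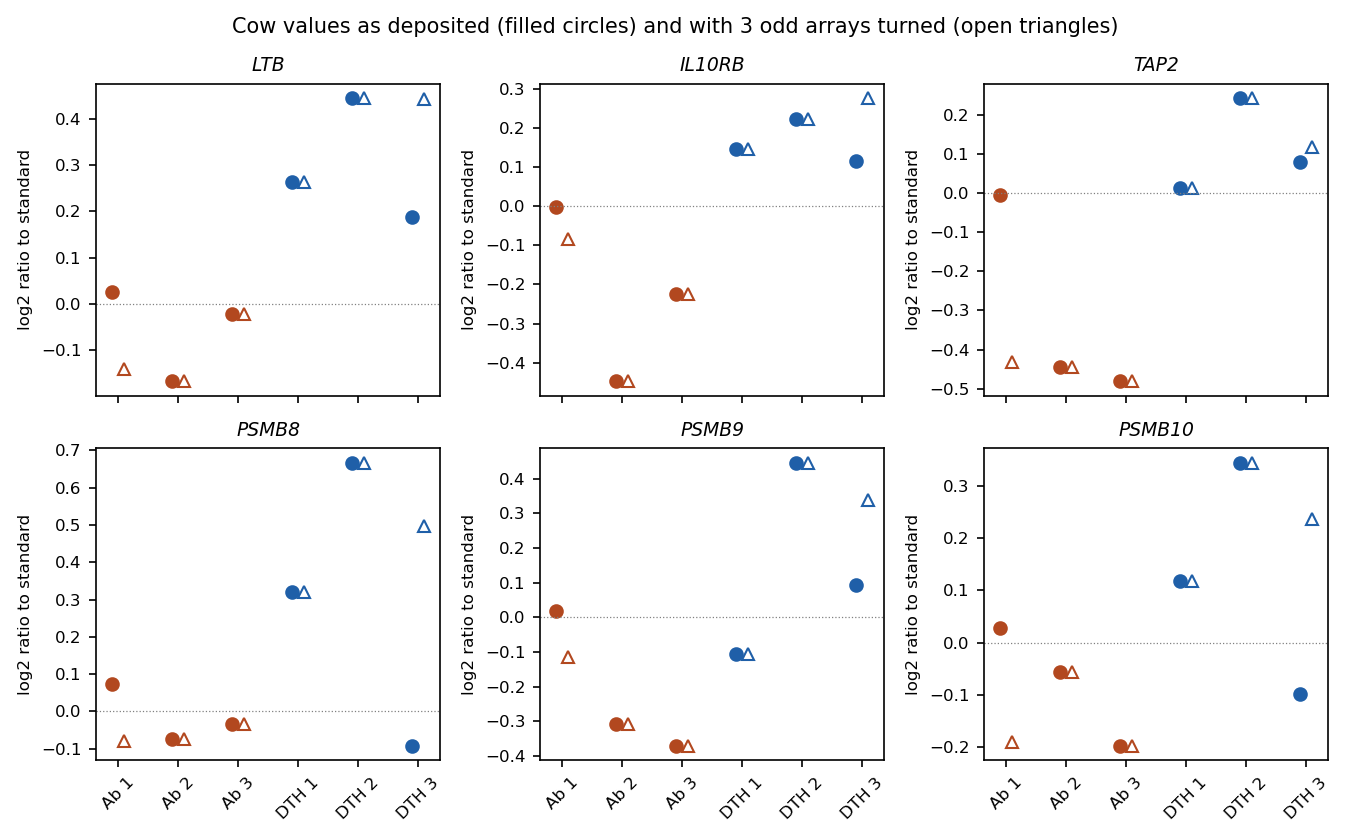
Log2 ratio to the standard in low-Ab cows 1 to 3 (Ab, orange) and low-DTH cows 1 to 3 (DTH, blue) for 6 genes, as deposited (filled circles) and with the 3 arrays of doubtful sign turned (open triangles). Only low-Ab cow 1 and low-DTH cow 3 move between the readings; TAP2 of low-Ab cow 1 goes from −0.01 to −0.43.

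Genes of MHC class II, which shows foreign peptides to helper T cells, went different ways. BOLA-DRB3, the polymorphic DR beta chain of cattle, was at 0.01, −0.37 and 0.27 in low-Ab cows and at 0.59, 1.29 and −0.36 in low-DTH cows, and the difference was −0.53 ± 0.41 (SE). BOLA-DQA2 differed by 0.29 ± 0.21 (SE) and BOLA-DMA, which loads peptide, by 0.01 ± 0.20 (SE). All 3 overlapped as deposited. Turned, BOLA-DRB3 differed by −0.75 ± 0.29 (SE, limma adjusted p = 0.22) and BOLA-DQA2 by 0.35 ± 0.15 (SE, limma adjusted p = 0.27), both without overlap. DR and DQ alleles differ between cows, so a probe can also read sequence differences, which was not tested.

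Among genes of B cells and immunoglobulin, IGHM, the heavy chain of IgM, varied widely between cows. It was at −0.11, −1.30 and 0.02 in low-Ab cows and at −0.21, 1.5 and −0.28 in low-DTH cows. The difference of −0.80 ± 0.57 (SE, 95% interval −2.17 to 0.57, limma adjusted p = 0.88) was within that spread. As deposited it came from low-Ab cow 2 and low-DTH cow 2, and in the latter from arrays 3 and 4, at 2.63 and 2.79, as against 0.21 and 0.38 on arrays 1 and 2. Turned, low-Ab cow 1 stood at −0.57 and low-DTH cow 3 at 0.66, and the difference was −1.27 ± 0.52 (SE, limma adjusted p = 0.25), still with overlap. CD40, the receptor through which T cells help B cells, differed by −0.17 ± 0.12 (SE), JCHAIN, which joins secreted IgM and IgA, by −0.11 ± 0.11 (SE), and CD72 by −0.09 ± 0.15 (SE). All 4 measured genes of 17 were below 0 under both readings, with medians of −0.14 and −0.28. None passed adjustment or was separated.

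T cell genes did not separate the groups as a whole. The CD3 chains, which carry the signal of the T cell receptor, were all 4 below 0 as deposited, with a median of −0.16. CD3D did not overlap, with low-Ab cows at −0.08, 0.30 and 0.29 and low-DTH cows at 0.44, 0.31 and 0.30, and a difference of −0.18 ± 0.13 (SE, limma adjusted p = 0.88). With the signs turned low-Ab cow 1 stood at 0.35 and the CD3D groups overlapped. CD3E differed by −0.19 ± 0.17 (SE), CD3G by −0.14 ± 0.14 (SE) and CD247 by −0.06 ± 0.31 (SE), the last of which was above 0 turned. CD4 differed by −0.07 ± 0.13 (SE), CD5 by −0.09 ± 0.12 (SE) and CD28 by 0.05 ± 0.09 (SE). CTLA4, an inhibitory receptor, differed by 0.02 ± 0.12 (SE).

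CD69, an early activation marker, depended on the doubtful signs more than most genes. Low-Ab cow 1 was at −0.04 as deposited, but its arrays read −1.45, −1.08, 0.95 and 1.43, and turned the cow stood at 1.23. The other low-Ab cows were at 1.42 and 1.90, and the low-DTH cows as deposited at 0.71, 0.06 and 1.11. Turned, low-DTH cow 3 lay just above low-Ab cow 1. The difference was 0.47 ± 0.52 (SE, limma adjusted p = 0.90) as deposited and 0.85 ± 0.33 (SE, limma adjusted p = 0.23) turned. The groups overlapped under both readings.

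Genes that mark monocytes, a main source of IL1 and these chemokines, differed little between the groups as deposited. CD14, a co-receptor for bacterial lipopolysaccharide, was at 0.01, −0.16 and −0.17 in low-Ab cows and at 0.15, −0.01 and −0.45 in low-DTH cows, and the difference was −0.00 ± 0.17 (SE). SIRPA differed by −0.06 ± 0.18 (SE) and FCGR1A by −0.01 ± 0.11 (SE). CD80 and CD86, which costimulate T cells and are carried by several cell types, differed by 0.13 ± 0.10 (SE) and 0.14 ± 0.10 (SE). Of 13 listed markers 5 were measured, 2 were above 0, the median was −0.00 and none was separated as deposited. Turned, 3 of 5 were above 0 with a median of 0.06, and 1, CD80 at 0.21 ± 0.07 (SE, limma adjusted p = 0.17), was separated. The mean of the 5 ran from −0.10 to −0.02 in low-Ab cows and from −0.22 to 0.01 in low-DTH cows, where the lowest cow stood at −0.30 turned. The cow lowest in this mean, low-DTH cow 3, was also the lowest in IL1B, CCL3 and CXCL8, and without it the differences were 1.14 for IL1B and 0.94 for CCL3. Its values rest in part on the array of doubtful sign. Any part of monocyte content in the differences of these cytokines was not tested. Sensors upstream of these cytokines were also close: TLR2 differed by 0.02 ± 0.23 (SE), TLR4 by 0.10 ± 0.10 (SE), NOD2 by −0.00 ± 0.12 (SE) and NFKB1 by −0.11 ± 0.11 (SE), or −0.18 ± 0.07 (SE) without overlap when turned.

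Markers of other blood cells did not separate the groups as deposited. LTF, a granule protein of neutrophils, was at −0.02, 0.12 and 1.30 in low-Ab cows and at −0.29, −0.28 and 0.18 in low-DTH cows, and the difference was 0.60 ± 0.36 (SE, limma adjusted p = 0.83). The high value came from low-Ab cow 3 alone, which had the highest IL1B of the 6 cows but the lowest CCL3 of the low-Ab cows. LTF lacked a value on 1 array of every cow except low-DTH cow 1. The Alexa555 side of low-Ab cow 3 was array 4 alone, at 1.84. That of low-DTH cow 3 was only the array of doubtful sign, at 0.27. CXCR2, the CXCL8 receptor of neutrophils, differed by 0.01 ± 0.11 (SE). These were the only 2 measured of 15 listed neutrophil markers, and the mean of both ran from 0.04 to 0.67 in low-Ab cows and from −0.16 to 0.07 in low-DTH cows. Turned, this mean was −0.06 in low-Ab cow 1 and −0.05 in low-DTH cow 3. Any part of neutrophil content in the inflammatory genes was not tested. FCGR3A, an Fc receptor of NK cells and monocytes, differed by −0.01 ± 0.40 (SE), with low-Ab cow 2 at 0.97 and low-Ab cow 3 at −0.62. XCL1, a chemokine of NK and T cells, differed by 0.11 ± 0.16 (SE), and by 0.25 ± 0.08 (SE, limma adjusted p = 0.14) without overlap when turned. CD163L1, of the WC1 receptors that mark gamma delta T cells in cattle, differed by −0.38 ± 0.34 (SE), with low-DTH cow 3 alone above the standard at 0.71. No marker of platelets or red cells was among the named genes.

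The cytokines by which T helper responses are usually told apart had small differences. Of type 2 genes, IL4 differed by 0.08 ± 0.09 (SE), IL5 by 0.05 ± 0.09 (SE), IL13 by 0.05 ± 0.11 (SE), IL4R by 0.06 ± 0.09 (SE) and STAT6 by −0.05 ± 0.10 (SE). Of the type 1 axis, IFNG differed by 0.03 ± 0.14 (SE), IL12A by 0.08 ± 0.09 (SE), IL12B by 0.01 ± 0.10 (SE) and IL12RB2 by −0.03 ± 0.10 (SE). IFNGR1, the ligand-binding chain of the interferon gamma receptor, had the largest difference of that axis at −0.15 ± 0.10 (SE). The medians were 0.05 over 5 type 2 genes and 0.02 over 6 genes of the type 1 axis, with none separated as deposited. Turned, the medians were 0.09 and 0.04, and 1 type 2 gene, IL4R at 0.11 ± 0.07 (SE), was separated. IL2, IL2RA, IL2RG and IL15 gave differences between −0.08 and 0.06. The SE of these differences was close to 0.10, and CCL2, at 0.26 ± 0.09 (SE), had a limma adjusted p of 0.61, so differences several times the SE were not detectable with 3 cows a group.

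Complement and Fc receptor genes lay slightly below 0, with a median of −0.06 over 6 measured genes. C3, the central complement protein, was at −0.11, 0.03 and −0.16 in low-Ab cows and at 0.10, 0.12 and 0.04 in low-DTH cows, and the difference was −0.17 ± 0.10 (SE, limma adjusted p = 0.78) without overlap under both readings. The gap was 0.01, between low-Ab cow 2 and low-DTH cow 3. Of 9 measured endocrine and growth factor genes, 3 did not overlap as deposited, against 11.3% of all features. PRLR and IGF1R were higher by 0.10 and 0.11, and PRL was lower by 0.09, each close to its SE of 0.09, 0.09 and 0.09. The IGF1R difference was −0.01 with the 3 arrays turned, and all 3 genes then overlapped. In that reading 1 other gene of the 9 was lower without overlap, against 17% of all features.

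Genes often taken as constant also had values below 0. ACTB, cytoskeletal actin, differed by −0.35 ± 0.28 (SE), GAPDH by −0.25 ± 0.33 (SE) and HPRT1 by −0.14 ± 0.12 (SE). As deposited ACTB rested on low-DTH cow 2 at 0.85, while the other 5 cows lay between −0.36 and −0.03. Turned, low-DTH cow 3 stood at 0.61 and the ACTB difference was −0.64 ± 0.26 (SE, limma adjusted p = 0.24). GAPDH was at 0.01, 0.06 and −0.01 in low-Ab cows and at 0.54, 0.79 and −0.52 in low-DTH cows, and low-DTH cow 3 went to 0.27 with its array turned. The turned difference of GAPDH was −0.51 ± 0.14 (SE, limma adjusted p = 0.12) without overlap. Differences of the size seen for LTB or the proteasome subunits were thus also found in these genes.

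**Figure D4:**
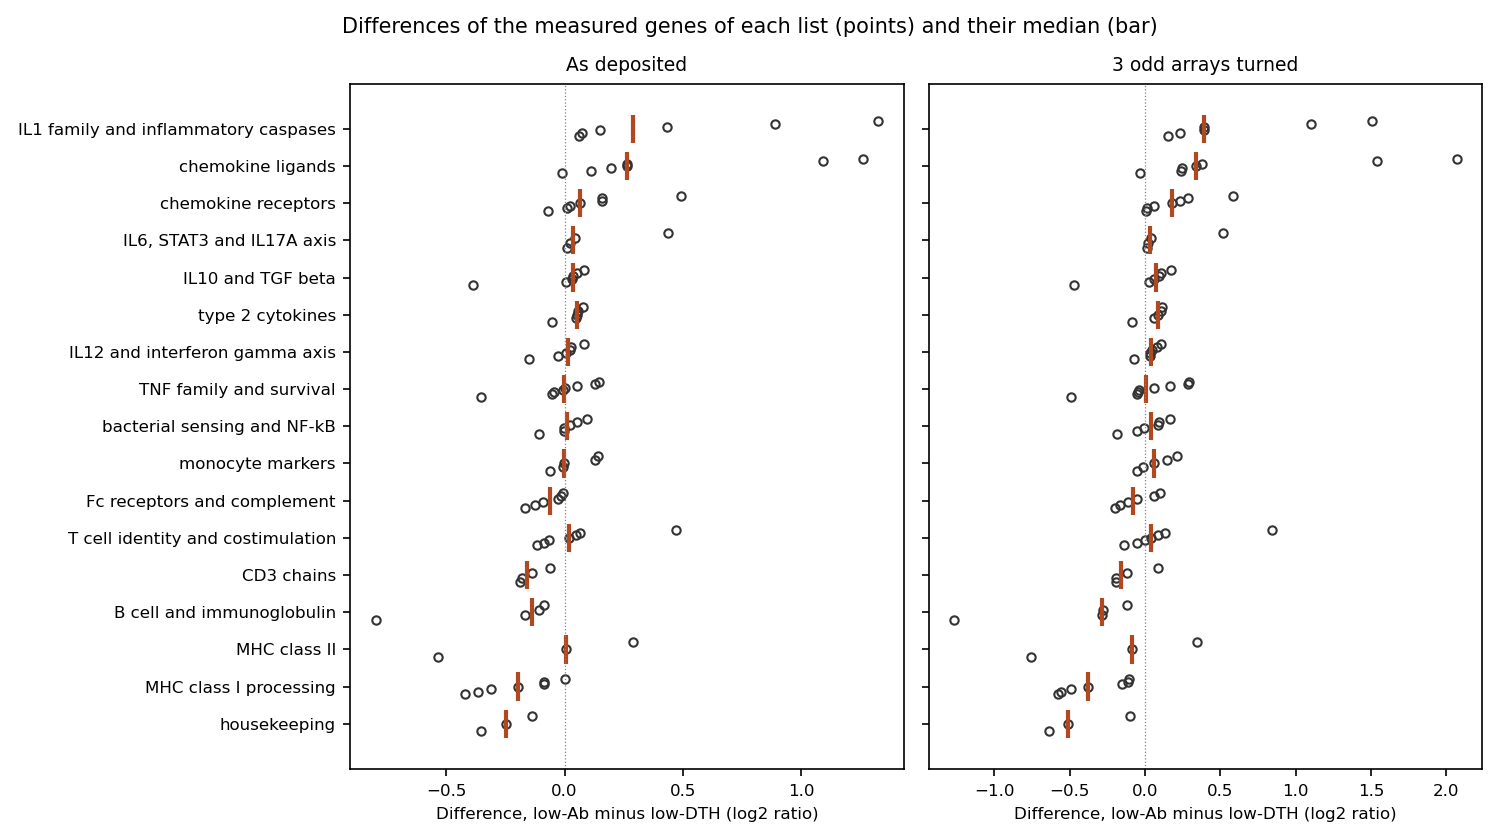
Differences of the measured genes (points) and their median (bars) for 17 of the gene lists, each with at least 3 measured genes, as deposited (left) and with the 3 arrays of doubtful sign turned (right), on the log2 ratio scale. The medians of the IL1 family (0.29 and 0.39) and the chemokine ligands (0.26 and 0.34) lie to the right of 0, and those of MHC class I processing (−0.20 and −0.38) and the housekeeping genes (−0.25 and −0.51) to the left. Lists with fewer measured genes, such as neutrophil markers (median 0.30 as deposited), gamma delta T cell markers (−0.38) and interferon response genes (−0.31), are not plotted, nor are the lists of IL2 and IL15, myeloid growth factors and endocrine factors.

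The leading differences were then compared between array sets. Arrays 1 and 2 of a cow, 1 in each dye orientation, gave 1.17 for IL1A, 1.82 for IL1B, 1.59 for CCL3 and 1.64 for CXCL8. Arrays 3 and 4 gave 0.05, 0.21, 0.12 and −0.84, and also −0.04 for IL6 and −0.18 for IL1RN, but in that set low-DTH cow 3 is represented only by the array of doubtful sign. With the 3 signs turned the same arrays gave 1.04, 0.94, 1.26 and 2.14, and 0.46 for IL6 and 0.19 for IL1RN. As deposited, Alexa647 arrays alone gave 1.07 for IL1A, 1.70 for IL1B, 1.65 for CCL3, 1.74 for CXCL8 and 0.66 for IL1RN. Alexa555 arrays alone, which hold the array of doubtful sign of low-DTH cow 3, gave 0.71, 0.955, 0.87, 0.44 and 0.20. Within low-DTH cows 1 and 2 the arrays fell into pairs: arrays 1 and 2 correlated at 0.58 and 0.61 and arrays 3 and 4 at 0.73 and 0.64, but array 1 with array 3, of the same dye orientation, at 0.45 and 0.24. In low-Ab cows 2 and 3 the closest arrays were instead 1 and 3, of the same dye, at 0.62 and 0.52. IL1B in low-DTH cow 2 followed the pairs, at −1.5 and −1.44 on arrays 1 and 2 and −0.49 and −0.48 on arrays 3 and 4. So part of the spread within a cow lay between these pairs of arrays, and each pair is not an independent cow.

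Last, the low cows were set beside the 5 high cows: 2 high-Ab, 2 high-DTH and 1 labelled high for both. IL1B in the low-Ab cows, at −0.04 to 0.16, lay above all other 8 cows, of which high-DTH cow 3 came nearest at −0.35. The high-Ab cows were at −1.03 and −1.15, in the range of the low-DTH cows, high-DTH cow 2 stood close to them at −0.91, and the cow high for both was at −0.43. IL1A was at −0.80 and −0.81 in the high-Ab cows and at 0.49 and −0.43 in the high-DTH cows, so that the order of the traits among high cows was the reverse of that among low cows. High-Ab minus high-DTH was −0.83 for IL1A and −0.46 for IL1B. The 2 high-Ab and 2 high-DTH cows did not overlap in either gene, but neither did they in 269 of 561 features (48%), of which 169 were higher (30.1% of all) and 100 lower (17.8% of all) in high-Ab cows. The test of the low difference against the high difference, in 1 limma fit of the 11 cows, gave 1.72 ± 0.32 (SE, adjusted p = 0.052) for IL1A and 1.78 ± 0.31 (SE, adjusted p = 0.052) for IL1B. For CCL3 it gave 1.79 ± 0.52 (SE, adjusted p = 0.15). Of 561 features with values in all cows 0 (0%) passed, and 58 (10.3%) had an unadjusted p under 0.05. As deposited, the high cows and the low cows were each separated but in opposite directions in 20 of the 561 (3.57%), among them 4 named genes. TAP2, IL10RB and IL6 had the same sign in both, with high-Ab minus high-DTH at −0.29, −0.29 and 0.34.

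**Figure D5:**
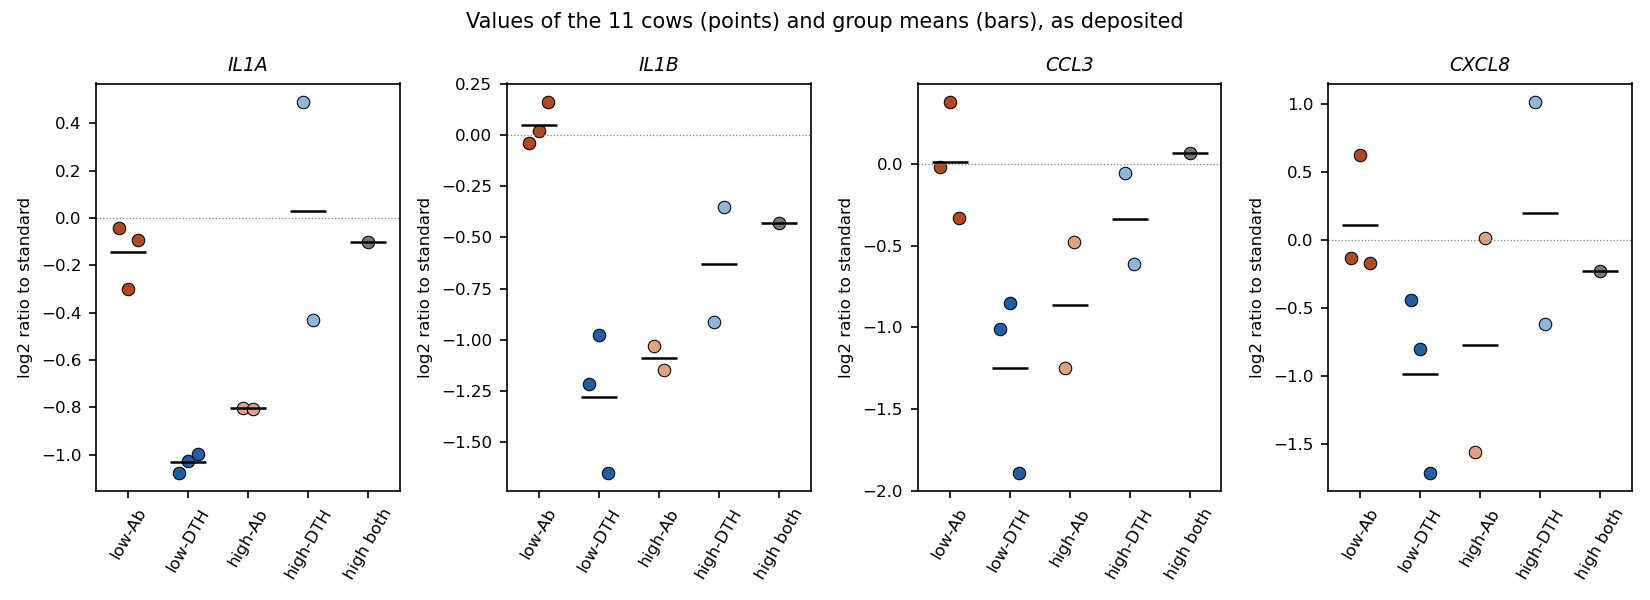
Log2 ratio to the standard of each of the 11 cows (points) and the mean of each label group (bars) for IL1A, IL1B, CCL3 and CXCL8, as deposited. The 3 low-Ab cows lie above all other cows for IL1B and above the low-DTH cows in all 4 genes, whereas the 2 high-Ab cows lie below the 2 high-DTH cows for IL1A and IL1B.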

How the data were processed

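Each sample is 1 two-colour array of blood mononuclear cell RNA against a common standard, and the authors deposited 1 log ratio per spot, read as log2. The sources used here give no scanner, background correction, normalization, log base or direction. Arrays with exchanged dyes were used without a change of sign. No intensities were analysed, and precision is limited by how many arrays and cows there are. Of 1680 spots, 1208 belonged to 141 genes, 16 to a bacterial control, and 456 had several symbols or none. The spots without 1 symbol were tested singly where every cow had a value in each orientation (423). Gene identifiers matched RefSeq (ARS-UCD2.0) for 137 genes. Spots of a gene were averaged, then arrays within a dye orientation, then orientations, giving 1 value per cow. Tests used limma 3.58.1 in R 4.3.3 (lmFit, eBayes, two-sided) with Benjamini-Hochberg adjustment at 0.05, and were tested on simulated data. Cows are taken as separate animals, as the labels number them. Genes named are the 24 of smallest p, the 3 largest differences in each list and all measured markers of other cells; counts without overlap are also given. The groups, lists and rules were chosen with earlier results of these data known. Alternatives covered signs, normalization, dyes, array sets, averaging, samples, moderation and features. Cows of equal number were not treated as pairs (deviations correlated at −0.11, 0.16 and 0.36). These values cannot exclude a pairing, as low-Ab cow 1 and low-DTH cow 3 hold arrays of doubtful sign.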

Additional observations from a re-analysis of the deposited data

Results flagged for a closer look

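In 4 named genes every low-Ab cow lay on one side of every low-DTH cow while both high-Ab cows lay on the other side of both high-DTH cows, as 20 of 561 features did (3.57%). The difference of the low cows minus that of the high cows was 1.72 for IL1A, 1.78 for IL1B, −0.61 for PSMC5 and −0.12 for PRL. The limma adjusted p of this contrast was 0.052, 0.052, 0.26 and 0.86. With the 3 arrays of doubtful sign turned the values were 1.94, 1.96, −0.70 and −0.10. Under that reading the low cows overlapped in PSMC5 and PRL, so of the 4 genes IL1A and IL1B alone kept the pattern. High-DTH cow 2, at 0.49 for IL1A, carried much of the high side of IL1A, and without this cow the contrast was 1.26 for IL1A and 2.06 for IL1B.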

How the results depend on the processing

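IL1A and IL1B were the only named genes to pass the threshold of 0.05 under more than 1 alternative. With adjusted p-values from limma, 2 features (both genes) passed with arrays scaled to equal spread, 2 (both genes) with the named genes adjusted alone, 1 (IL1B) with a plain mean over arrays, and 3 (IL1B and a pair of spots of 1 unnamed clone) with all 11 cows in the fit. Of the alternatives chosen after seeing the data, averaging unnamed spots by place gave 2 (both genes), and arrays 3 and 4 alone with the 3 signs turned gave 5 (IL1A, GAPDH and 3 unnamed spots). The count stayed 0 under the other 18 alternatives, leaving out any low cow included (0 to 0), with 28 to 116 features at an unadjusted p under 0.05 except for 15 on Alexa555 arrays alone and 18 without low-Ab cow 2. With the cow number as a replicate block it was 0, with a smallest adjusted p of 0.12. For the low difference against the high difference 2 features passed with a plain mean, 10 with arrays as units and the cow as a random block, and 0 to 3 without single cows (3 without high-DTH cow 2, 1 without high-DTH cow 3).

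Of 42 named genes with a difference above its SE, 21 kept their sign under all 24 alternatives, among them IL1A, IL1B, CCL2, CCL3, CCL20, LTB, IL10RB, TAP2, PSMB8 and PSMB9. Some of the 24 leave the differences of named genes as they are, so no sign could change under them. These are the fit of all 11 cows, robust moderation, named genes alone, the replicate block and unnamed spots averaged by place. Signs reversed as follows, and the cause was not tested. On arrays 3 and 4, low-DTH cow 3 is represented only by the array of doubtful sign. Arrays 3 and 4 gave CXCL8 −0.84, IL1RN −0.18, IL6 −0.036, CD86 −0.047, CD27 0.0077, CD3D 0.060, CD3E 0.18 and ICAM3 0.15. Arrays 1 and 2 gave ADAM17 −0.053, CCR4 −0.019, IGF1R −0.054, IRF1 0.075, PRLR −0.057 and PRP6 −0.10. Alexa647 arrays gave CCR3 −0.027, IFNGR1 0.16, IGF1R −0.030, PRLR −0.022, PRP6 −0.085 and TLR4 −0.020, and Alexa555 arrays CCR4 −0.0060 and CD80 −0.0068. Turning the signs gave IGF1R −0.014. Turned arrays 1 and 2 gave ADAM17 −0.062, CD3D 0.16, CD3E 0.035 and IGF1R −0.080, and turned arrays 3 and 4 BOLA-DQA2 −0.20, HPRT1 0.078, IGF1R −0.076 and TLR4 −0.034. CCL5 ran from −0.0041 to 0.475 without single cows. Of the list medians, 64 of 480 values moved by more than the spread between cows.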

Other observations

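1 unnamed clone behaved much like the IL1 genes. Its 8 spots (the first pair has the probe numbers 297 and 298) gave −0.02, −0.18 and −0.28 in low-Ab cows and −0.60, −0.74 and −0.92 in low-DTH cows, with single-spot differences between 0.43 and 0.73. Averaged over its spots, the difference was 0.59 ± 0.12 (SE, limma adjusted p = 0.13 over 194 genes and places). A second unnamed clone, with the probe numbers 161 and 162, was at 0.00, −0.11 and −0.84 in low-Ab cows and at −0.64, −1.20 and −1.54 in low-DTH cows, and differed by 0.81 ± 0.31 (SE, limma adjusted p = 0.54). Unnamed clones are grouped here by their place in the 4 blocks of the array, and their genes are not named in the table used. Control spots of the bacterial gene vapA lay between 0.00 and 0.06 in 5 of the 6 cows and at 0.20 in low-DTH cow 3.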
